A study of Homo sapiens with 66 samples.

Results

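Prolyl-tRNA synthetase (ProRS) charges the transfer RNA for proline, and 2 chemically distinct inhibitors of it were compared here directly with each other in drug-resistant myeloma cells. The comparison comprised 6 of the 66 RNAseq libraries of the series. These were the 3 libraries of L363-CFZr cells given NCP26 and the 3 of the same cells given halofuginone (HFG, labelled MAZ1392), both at 1 µM for 24 h. They were chosen by their titles as one direct contrast of matched dose and time. L363 is an established human multiple myeloma (MM) cell line. The labels name the cells CFZr L363, a subline resistant to the proteasome inhibitor carfilzomib (CFZ). It is a single drug-adapted line, its parental line was not analysed here, and neither compound group carried CFZ according to its labels. HFG, a plant-alkaloid derivative, competes with proline in the ProRS active site, whereas NCP26 is a pyrazinamide-based inhibitor that binds the ATP site. DMSO solvent, NCP22 and halofuginol (MAZ1805), each with 3 libraries of the same line at 24 h, served as context without a test. AMO1, a second MM line marked WT in its sample titles, was treated in the same way. It gave an independent set of 6 libraries for the same contrast.

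A ProRS inhibitor leaves the proline transfer RNA uncharged. Uncharged transfer RNA activates the kinase GCN2 (EIF2AK4), which phosphorylates eIF2α, the start of the integrated stress response (ISR). General initiation of translation then falls while the mRNA of the transcription factor ATF4 is translated more. ATF4, with partners such as the C/EBP proteins, induces genes for amino acid uptake, amino acid synthesis and transfer RNA charging, and the factor CHOP (DDIT3), which is linked to apoptosis under prolonged stress. Plasma cells and myeloma cells secrete large amounts of protein and lean on this pathway and on the endoplasmic reticulum (ER).

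The 6 libraries held 2966525 to 4056633 counts, and values are given as CPM (counts scaled to a common library total) after TMM scaling. A log2 fold change (log2FC) is NCP26 over HFG throughout, so a positive value means a higher level with NCP26, and errors on log2FC are standard errors. NCP26 replicate 1 stood apart from the other 5 libraries. In a group of 52 genes picked because they were high in DMSO replicate 2 and low in the other DMSO libraries, it held 0.721% of its counts, against 0.0828% to 0.133% in the other 5. Of the 44 of these genes that were tested, 1 passed the test. Among the context libraries, the 52 genes held 1.43% of counts in DMSO replicate 2, from which they were picked, and 1.35% in halofuginol replicate 3. The labels did not say whether replicates were separate cultures, so p-values measure the spread between these samples, which may be technical. All 9 plasma cell markers, SDC1 and IRF4 among them, were at 1 CPM or more in both groups. Of 6 B cell markers, PAX5 was at 0 in both groups, but CD79B was at 23.2, 26.8 and 26.8 CPM with NCP26. With HFG, CD79B was at 31.9, 27.8 and 33.8 CPM. The summed B cell markers reached 28.9 CPM with NCP26 and 35.2 CPM with HFG. The summed T/NK and myeloid markers reached at most 1.31 CPM, and the stromal or epithelial markers at most 3.51 CPM.

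With NCP26, the ISR genes stood higher than with HFG, and genes for ribosomal proteins, respiratory chain subunits, glycolysis, chaperones and the cytoskeleton stood lower. Of 10462 genes tested, 1354 passed an adjusted p of 0.05 (12.9%). Of these, 577 were higher with NCP26 (5.52% of all tested) and 777 were lower (7.43%). Most differences were small: the median absolute log2FC of the genes that passed was 0.38, and 26 of them differed at least 2-fold, 20 higher and 6 lower. The groups did not overlap for 3380 genes (32.3%). Genes that were higher had a median transcript length of 1637 bases and those that were lower 855 bases, against 1134 bases for all tested genes. The part of transcript length in these differences was not tested beyond a fit with a length correction, in which 1238 genes passed. A fit of all 5 groups of the line, which brings in the uneven DMSO libraries, left 127 genes, all of them among the 1354. The fit of the 4 groups other than DMSO gave 1271, of which 1185 were among the 1354. Leaving out one library at a time gave 588 (without HFG replicate 3) to 1688 genes (without NCP26 replicate 1).

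**Figure D1:**
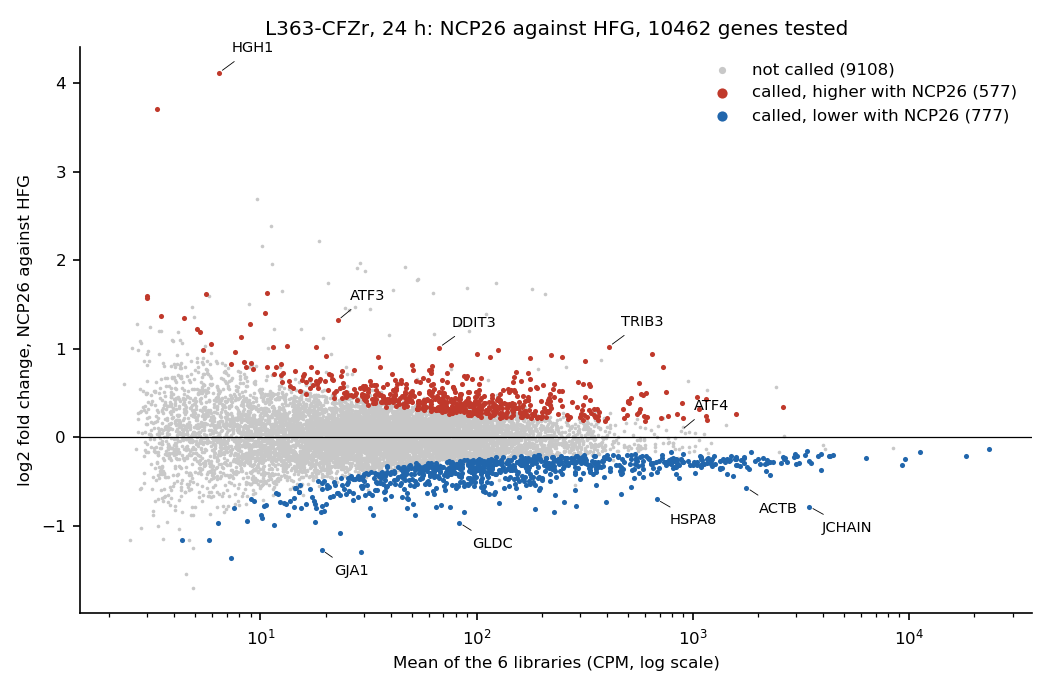
Each point is one of the 10462 tested genes, with mean CPM over the 6 libraries on a log axis and the log2FC of NCP26 over HFG on the vertical axis. Red points are the 577 higher and blue points the 777 lower genes that passed an adjusted p of 0.05, and most of them lie within 1 log2 unit of zero.

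The transcription factors and feedback regulators of the ISR stood higher with NCP26. Of 11 tested members, 7 rose with NCP26 over HFG and none fell (63.6%, against 12.9% of all tested genes in either direction). The median log2FC was 0.49, against 0.01 for all tested genes. Without NCP26 replicate 1, 9 passed. ATF3, a stress-induced repressor of the ATF family, was at 30.3, 36 and 31.1 CPM with NCP26 and at 16.3, 13.9 and 8.96 CPM with HFG. Its log2FC was 1.32 ± 0.18, with an adjusted p of 0.000579. DDIT3 (CHOP), on chromosome 12, was at 91.9, 99.1 and 77.0 CPM with NCP26 and at 42.2, 46.2 and 44.8 CPM with HFG. Every NCP26 library of both genes lay above every HFG library, and DDIT3 had a log2FC of 1.01 ± 0.10. CEBPB and CEBPG encode C/EBP partners of ATF4, and their log2FC values were 0.81 ± 0.11 and 0.49 ± 0.08. PPP1R15A (GADD34), which directs the phosphatase that removes phosphate from eIF2α, was at 95.4, 98.6 and 96.5 CPM with NCP26 against 58.2, 55.5 and 51.8 CPM with HFG. ATF5 (0.44 ± 0.16) and KLF10 (0.05 ± 0.12) did not pass.

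ATF4 itself hardly differed. It stood at 903, 921 and 885 CPM with NCP26 and at 866, 860 and 843 CPM with HFG, a log2FC of 0.08 ± 0.05 with an adjusted p of 0.305. All 3 NCP26 values were above the HFG values, but by less than the test could separate. ATF4 is regulated mainly at translation, which RNAseq does not measure. In addition, 26.4% of its 31-base words occurred in other genes, so its counts could be shared with copies. For DDIT3 this share was 28.9%, and for ATF3 and TRIB3 it was 0%.

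TRIB3, a pseudokinase that binds ATF4 and restrains it, had the smallest p of all tested genes. TRIB3 (ENSG00000101255, chr20:362835-397559, GRCh38) was at 557, 563 and 524 CPM with NCP26 and at 260, 270 and 277 CPM with HFG. Its log2FC was 1.03 ± 0.06, with an adjusted p of 8.93e-07, and it ranged from 1.00 to 1.06 over the alternatives tried. The gap between the groups was several times the spread within either.

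Among 17 tested ATF4 target genes outside amino acid metabolism, 13 rose with NCP26 over HFG and none fell, with a median of 0.48. The 13 were 76.5% of the tested members, against 12.9% of all tested genes in either direction. INHBE, which encodes an activin subunit secreted under stress, was at 171, 170 and 157 CPM with NCP26 and at 81.2, 84.3 and 86.3 CPM with HFG (0.99 ± 0.07). SESN2, a leucine sensor that restrains mTORC1, was at 240, 232 and 218 CPM against 117, 129 and 125 CPM (0.89 ± 0.07, adjusted p = 5.52e-06). CHAC1, an enzyme that degrades glutathione, was at 45.8, 47.1 and 39.3 CPM against 28.3, 33 and 28.5 CPM (0.56 ± 0.12, adjusted p = 0.00683). ADM2, VEGFA, STC2 and XPOT, a transfer RNA exporter, also rose, by 0.67, 0.40, 0.60 and 0.48 on the log2 scale. ERO1A (-0.19 ± 0.06), SESN1 (-0.04 ± 0.14), DDIT4 (0.06 ± 0.05) and VLDLR (0.26 ± 0.12) were the members that did not pass. With all 5 groups fitted together, 7 of the 17 passed and CHAC1 did not (adjusted p = 0.21), while its log2FC of 0.55 was nearly the same.

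The genes that rose in the ISR, ATF4 target and amino acid lists were searched for the letters TGATGNAA on both strands, the core of the C/EBP-ATF response element. The windows were RefSeq promoters of GRCh38.p14, from 250 bases before to 50 bases after the start. Of 43 such genes in 5 lists, 35 matched an entry, and 15 of them (42.9%) held the letters. In the same lists 4 of 28 matched genes that did not pass held them (14.3%), as did 214 of 8507 matched tested genes (2.52%) and 1217 of all 27305 symbols (4.46%). The lists were written from knowledge of ATF4 targets, so these shares describe the lists and show no binding in these cells. INHBE, VEGFA, GPT2, SLC7A11, PSPH, SHMT2, ALDH1L2 and YARS1 had no entry. IARS1 held a further site upstream of the start, and the sites of CARS1, MARS1 and SLC38A1 ran across the start. None of these is shown. As examples, 8 other upstream sites of genes that rose are shown with 30 bases each. They are given on the strand of the gene with the motif, in either orientation, in capitals.
CHAC1, chr15:40953251-40953280, plus strand: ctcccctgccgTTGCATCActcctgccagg
ATF3, chr1:212565205-212565234, plus strand: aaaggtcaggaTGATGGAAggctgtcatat
ASNS, chr7:97872458-97872487, minus strand: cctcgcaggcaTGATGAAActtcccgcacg
SLC1A5, chr19:46784893-46784922, minus strand: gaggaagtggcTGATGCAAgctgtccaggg
AARS1, chr16:70289675-70289704, minus strand: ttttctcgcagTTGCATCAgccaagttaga
GARS1, chr7:30594834-30594863, plus strand: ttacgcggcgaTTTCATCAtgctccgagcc
CEBPG, chr19:33374060-33374089, plus strand: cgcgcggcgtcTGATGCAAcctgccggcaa
HERPUD1, chr16:56931955-56931984, plus strand: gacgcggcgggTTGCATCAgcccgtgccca
The CEBPG, SLC1A5, CHAC1, AARS1 and HERPUD1 sites carry the core as TGATGCAA or its reverse complement TTGCATCA, whereas ATF3, ASNS and GARS1 differ at the free base.

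**Figure D2:**
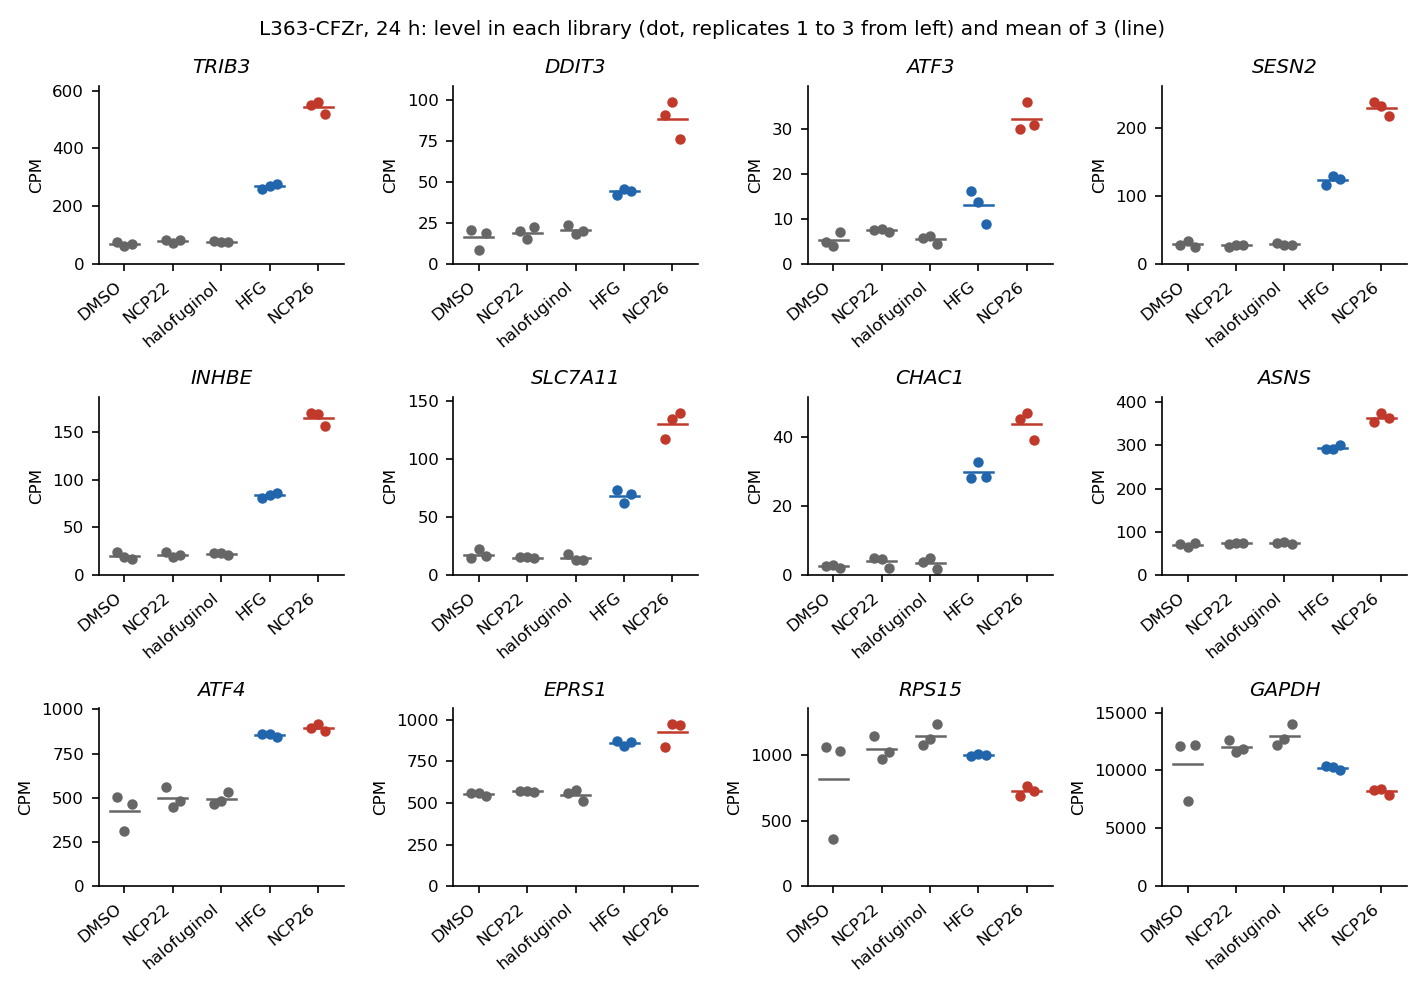
Each panel gives 1 of 12 genes in the 15 L363-CFZr libraries of 24 h, with CPM on the vertical axis and the 5 groups DMSO, NCP22, halofuginol, HFG and NCP26 along the horizontal axis. Points are single libraries and the line is the group mean. TRIB3, DDIT3, SESN2 and INHBE step up from the first 3 groups to HFG and again to NCP26, ATF4 and EPRS1 step up once, and RPS15 and GAPDH are lowest with NCP26 apart from DMSO replicate 2.

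Amino acid transporters moved in the same direction. Of 17 tested, 8 rose and none fell (47.1%, against 12.9% of all tested genes in either direction), with a median log2FC of 0.29. With all 5 groups 3 rose, and with the length correction 7 rose and the median was 0.20. Without NCP26 replicate 1, 7 rose and 1 fell. A correction for GC content gave 8 higher and 1 lower. SLC7A11, the cystine importer of system xc, was at 119, 136 and 141 CPM with NCP26 and at 73.5, 62.8 and 69.7 CPM with HFG (0.94 ± 0.09, adjusted p = 3.31e-05). Its obligate partner SLC3A2 rose by 0.58 ± 0.06. SLC1A5, which carries glutamine and holds the TGATGCAA site, was at 738, 700 and 697 CPM against 489, 492 and 523 CPM (0.51 ± 0.05). Of its 31-base words, 22.8% occurred in other genes. The leucine carrier SLC7A5 rose by 0.29 ± 0.07. SLC38A2, a carrier of small neutral amino acids that also takes up proline, stood at -0.04 ± 0.09 and did not pass.

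Of 14 enzymes of serine, asparagine and one-carbon metabolism, 7 rose and 2 fell, with a median of 0.21. Together these were 64.3%, against 12.9% of all tested genes in either direction. ASNS, asparagine synthetase, was at 357, 376 and 365 CPM with NCP26 and at 292, 293 and 300 CPM with HFG (0.31 ± 0.06, adjusted p = 0.00301). PSAT1, SHMT2 and MTHFD2, of the serine and mitochondrial folate pathways, rose by 0.26, 0.27 and 0.32. ALDH1L2, another mitochondrial folate enzyme, rose by 0.60 ± 0.06. The members that fell were GLDC, the glycine cleavage decarboxylase, and the cytosolic folate enzyme MTHFD1 (-0.43 ± 0.09). GLDC was at 60.9, 53.7 and 54.5 CPM against 110, 107 and 112 CPM, a log2FC of -0.96 ± 0.08. In the fit of all 5 groups none of the 7 enzymes that rose passed, although 7 of the list were higher at an unadjusted p under 0.05, and ASNS had an adjusted p of 0.0745. Of the 31-base words of ASNS, 48.6% occurred in other genes.

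Of 22 aminoacyl-tRNA synthetases other than that for proline, 8 were higher and 2 lower (45.5%, against 12.9% of all tested genes in either direction). The median was 0.11. Without HFG replicate 2 the count was 5 higher and none lower, and with all 5 groups 2 and none. The lower calls were also lost without NCP26 replicate 3 or HFG replicate 3, and 1 was left without NCP26 replicate 2 or HFG replicate 1. AARS1, for alanine, was at 674, 679 and 664 CPM with NCP26 and at 481, 480 and 471 CPM with HFG (0.49 ± 0.05). WARS1, for tryptophan, was at 391.6, 382 and 345 CPM against 236, 264 and 238 CPM (0.60 ± 0.07). The ranges of both genes were narrow and far apart.

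The drug target and the proline pathway did not follow the ISR genes. EPRS1, which encodes the glutamyl-prolyl-tRNA synthetase inhibited by both compounds, was at 846, 979 and 978 CPM with NCP26 and at 875, 845 and 867 CPM with HFG. The groups overlapped through NCP26 replicate 1, and the log2FC was 0.12 ± 0.06 with an adjusted p of 0.221. Without that library the log2FC was 0.18 and passed (adjusted p = 0.00421). Of 8 tested genes of proline synthesis and prolyl-tRNA synthetases, 1 fell and none rose, with a median of -0.26. This share of 12.5% was near the 12.9% of all tested genes that passed. That gene was OAT, ornithine aminotransferase, at 162, 169 and 169 CPM against 233, 228 and 238 CPM (-0.48 ± 0.06). PYCR1, which makes the last step to proline, had a log2FC of 0.07 ± 0.06 (adjusted p = 0.492), and ALDH18A1, the first enzyme, -0.18 ± 0.07 (adjusted p = 0.123). None of the 8 eIF2 kinases and regulators passed in edgeR with the settings used here or in DESeq2, and 1 was higher at an unadjusted p under 0.05 in each. EIF2AK4 (GCN2) stood at 108, 82.7 and 109 CPM with NCP26 and at 70.2, 82.6 and 83.6 CPM with HFG (0.34 ± 0.11, adjusted p = 0.0641), where one NCP26 library reached down to the HFG range. EIF2AK4 passed without that library, NCP26 replicate 2 (0.46, adjusted p = 0.0129), and without the filter on low counts (0.33, adjusted p = 0.00487).

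Genes of the cell death machinery were higher where they differed. Of 22 members of the BCL2 family and death receptors, 7 rose with NCP26 over HFG and none fell. This share was 31.8%, against 12.9% of all tested genes in either direction. The count was 4 without HFG replicate 2, 9 without NCP26 replicate 1 and 2 with all 5 groups, and 1 fell without NCP26 replicate 3. TNFRSF10B, the TRAIL receptor DR5 and a CHOP target, was at 154, 148 and 147 CPM with NCP26 and at 78.5, 83.3 and 77.6 CPM with HFG (0.91 ± 0.07, adjusted p = 5.52e-06). BBC3, which encodes the BH3-only protein PUMA, was at 31.3, 30.2 and 28.4 CPM against 17, 19.8 and 16.9 CPM (0.75 ± 0.13). Members that restrain death rose as well. CFLAR, an inhibitor of caspase activation, rose by 0.45 ± 0.07, BCL2 by 0.25 ± 0.06 and MCL1 by 0.22 ± 0.06. The MCL1 call (adjusted p = 0.0246) did not hold in 6 of the alternatives, among them the length correction, where its adjusted p was 0.153. Of 18 p53 targets tested, 4 rose (22.2%, against 12.9% of all tested genes in either direction) and none fell. Their median was 0.12, and TNFRSF10B and BBC3 belong to both lists. CDKN1A (p21) was at 21.3, 18.4 and 20.2 CPM against 11, 12.8 and 12.3 CPM (0.72 ± 0.16). In DESeq2, 1 p53 target passed.

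Cytosolic ribosomal proteins formed the largest group on the lower side. Of 76 tested, 75 fell with NCP26 relative to HFG and none rose (98.7%, against 12.9% of all tested genes in either direction). The median log2FC of the 76 was -0.27, with a narrow range from -0.46 to -0.21. RPS15, of the small subunit, was at 692, 767 and 727 CPM with NCP26 and at 995, 1009 and 1003 CPM with HFG (-0.46 ± 0.05). RPL3, of the large subunit, was at 2694, 2827 and 2814 CPM against 3316, 3399 and 3453 CPM (-0.29 ± 0.04). Summed, ribosomal protein mRNAs took 9.16%, 9.89% and 9.84% of the counts with NCP26 and 10.8%, 11.1% and 11.3% with HFG. Without NCP26 replicate 1 all 76 passed, without HFG replicate 2 it was 58 and without HFG replicate 3 it was 55, and with the length correction 74. Fitted with all 5 groups, none passed, at an unadjusted p under 0.05 either, although the median was similar. DMSO replicate 2, with ribosomal proteins at 4.16% of counts against 9.88% and 9.79% in the other DMSO libraries, enters the spread of that fit. Without DMSO, the fit of 4 groups gave 65.

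Of 29 translation factors, 8 fell and 1 rose (31%, against 12.9% of all tested genes in either direction), with a median of -0.12. Without HFG replicate 2 it was 4 that fell, without HFG replicate 3 it was 2, and with all 5 groups none passed. The one that rose was EIF1, which guards start codon selection, at 0.25 ± 0.04. EEF1A1, the elongation factor that brings charged transfer RNA to the ribosome, was at 15676, 17587 and 17647 CPM with NCP26 and at 19323, 19684 and 19896 CPM with HFG (-0.21 ± 0.04). Of 24 ribosome biogenesis factors, 7 fell and none rose (29.2%, against 12.9% of all tested genes in either direction), with a median of -0.19. This became 3 without NCP26 replicate 2 or HFG replicate 1, and 1 without HFG replicate 2 or 3 or with all 5 groups. NOLC1, a nucleolar phosphoprotein, was at 123, 140 and 148 CPM with NCP26 and at 170, 193 and 194 CPM with HFG.

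**Figure D3:**
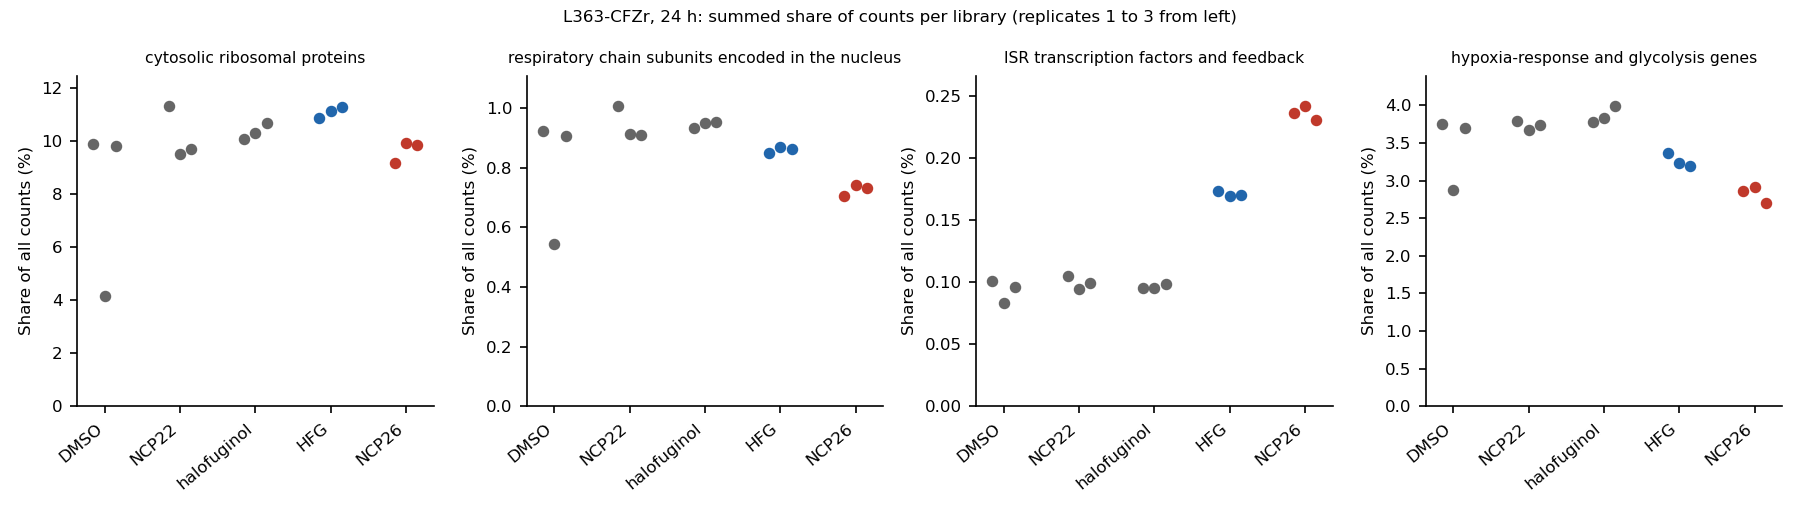
The 4 panels give the percentage of all counts taken by ribosomal protein genes, nuclear-encoded respiratory chain genes, ISR transcription factors and glycolysis genes in each L363-CFZr library of 24 h. In every panel the NCP26 and HFG libraries separate without overlap, and DMSO replicate 2 lies apart from the other DMSO libraries in the ribosomal, respiratory and glycolysis panels.

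Respiratory chain subunits encoded in the nucleus were lower in 25 of 31 tested genes and higher in none, with a median of -0.32. The 25 were 80.6% of the list, against 12.9% of all tested genes in either direction. NDUFA1, a subunit of complex I, was at 83.8, 87.0 and 97.8 CPM with NCP26 and at 137, 144 and 136 CPM with HFG (-0.63 ± 0.08, adjusted p = 0.000217). NDUFV2, of the same complex, was at 120, 125 and 125 CPM against 176, 182 and 174 CPM (-0.52 ± 0.07), and 30.3% of its 31-base words occurred in other genes. The group took 0.705% to 0.742% of counts with NCP26 and 0.850% to 0.869% with HFG. Transcripts encoded in the mitochondrial genome fell in 10 of 13 (76.9%), with a smaller median of -0.19. They fell in 4 without NCP26 replicate 2, HFG replicate 2 or HFG replicate 3. Their share was 6.91% to 7.25% with NCP26 and 7.49% to 7.76% with HFG. MT-CYB, of complex III, had a log2FC of -0.29 ± 0.04. In the fit of all 5 groups none of either set passed, while 13 of the 31 and 4 of the 13 were lower at an unadjusted p under 0.05.

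Glycolysis and hypoxia-response genes were lower too. Of 29 tested, 16 fell and 1 rose (58.6%, against 12.9% of all tested genes in either direction), with a median of -0.22. The gene that rose was VEGFA, which is also an ATF4 target. PKM, pyruvate kinase, was at 2007, 1950 and 1883 CPM with NCP26 and at 2713, 2573 and 2542 CPM with HFG (-0.42 ± 0.04). GAPDH, often used as a reference gene, was at 8416, 8477 and 7935 CPM against 10424, 10330 and 10047 CPM (-0.31 ± 0.04). ADM, which encodes adrenomedullin and responds to hypoxia, fell by 0.73 on the log2 scale. In the fit of all 5 groups, 4 of the 16 passed.

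Genes of protein folding and secretion fell in part. Of 24 genes of ER folding and ER-associated degradation, 11 fell and 2 rose (54.2%, against 12.9% of all tested genes in either direction). The median was -0.20. Without HFG replicate 3, 7 fell, and with all 5 groups 1 fell and none rose. HSP90B1, the ER-resident HSP90, was at 1797, 1945 and 1918 CPM with NCP26 and at 2440, 2505 and 2416 CPM with HFG (-0.38 ± 0.04). The members that rose were SEL1L (0.43 ± 0.08) of the degradation complex and HERPUD1 (0.24 ± 0.05), which lies downstream of both ATF4 and the unfolded protein response. XBP1 stood at -0.22 ± 0.06 and HSPA5 (BiP) at -0.28 ± 0.05, both lower. Of 25 heat shock factor targets and cytosolic chaperones, 11 fell and none rose (44%, against 12.9% of all tested genes in either direction). This became 5 without HFG replicate 2, 4 without HFG replicate 3 and 1 with all 5 groups. HSPA8, the constitutive HSC70, was at 497, 516 and 541 CPM against 811, 850 and 861 CPM (-0.70 ± 0.05), and 31% of its 31-base words occurred in other genes. Proteasome subunits differed little, with 5 of 30 lower (1 without HFG replicate 3, 2 without either other HFG library), none higher and a median of -0.14. The 5 were 16.7% of the list, against 12.9% of all tested genes that passed in either direction. PSMB5, the catalytic subunit bound by CFZ, did not pass (-0.24 ± 0.08, adjusted p = 0.0649).

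Tubulin and actin genes fell in 12 of 16 tested, with a median of -0.31 and none higher. The 12 were 75% of the tested members, against 12.9% of all tested genes in either direction. ACTB, β-actin, was at 1357, 1437 and 1477 CPM with NCP26 and at 2126, 2069 and 2133 CPM with HFG (-0.57 ± 0.05). TUBA1B, an α-tubulin that shares 50.7% of its 31-base words with other genes, fell by 0.64. Fitted with all 5 groups, 4 of the 12 passed.

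Of 22 plasma cell and myeloma genes, 7 fell with NCP26 relative to HFG and 2 rose, with a median of -0.11. This share was 40.9%, against 12.9% of all tested genes in either direction. Without NCP26 replicate 2, HFG replicate 2 or HFG replicate 3, 4 fell, and none rose without HFG replicate 2. In bulk RNA, fewer cells expressing a gene and less RNA of it per cell cannot be told apart. JCHAIN, the joining chain of secreted antibody, was at 2316, 2494 and 2796 CPM with NCP26 and at 4178, 4410 and 4486 CPM with HFG (-0.78 ± 0.06, adjusted p = 5.42e-06). MZB1, an ER protein that assists antibody secretion, was at 297, 304 and 289 CPM against 479, 507 and 493 CPM (-0.73 ± 0.06). In the edgeR fit of all 5 groups MZB1 did not pass (adjusted p = 0.104). SDC1 (CD138), the defining surface antigen, was at 529, 462 and 505 CPM against 582, 599 and 606 CPM (-0.26 ± 0.06), and its call was lost in 4 alternatives, which included leaving out NCP26 replicate 2 (adjusted p = 0.0586). CD38, the antigen of daratumumab, rose by 0.47 ± 0.11. IRF4 (-0.11 ± 0.05), PRDM1 (-0.17 ± 0.08), POU2AF1 (-0.10 ± 0.08), PIM2 (0.03 ± 0.05) and TCF3 (-0.10 ± 0.05) did not pass, although TCF3 did without NCP26 replicate 1 (-0.13, adjusted p = 0.0439). MYC was at 284, 287 and 319 CPM with NCP26 and at 396, 385 and 404 CPM with HFG (-0.41 ± 0.06, adjusted p = 0.000935).

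ABCB1, which encodes the efflux pump P-glycoprotein, was among the abundant transcripts of these cells. It was at 2925, 2962 and 2907 CPM with NCP26 and at 2287, 2250 and 2375 CPM with HFG, a log2FC of 0.35 ± 0.04 with an adjusted p of 0.000159. Its libraries did not overlap, and with DMSO it stood lower still, at 1579, 1798 and 1731 CPM. In the edgeR fit of all 5 groups ABCB1 did not pass (adjusted p = 0.0716).

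Sterol and fatty acid synthesis genes fell in 11 of 28 (39.3%) and rose in none, with a median of -0.21. It was 5 without HFG replicate 3, 6 without HFG replicate 2 or NCP26 replicate 2, 7 without HFG replicate 1 or in DESeq2, and 1 with all 5 groups. FASN, fatty acid synthase, was at 123, 97.9 and 103 CPM against 173, 156 and 153 CPM (-0.58 ± 0.09). INSIG1, a sterol-regulated brake on SREBP, fell by 0.60 ± 0.09. G2/M and mitotic genes fell in 7 of 30 (23.3%, against 12.9% of all tested genes in either direction), with a median of -0.23 and none higher. This count fell to 2 without NCP26 replicate 2 or any one HFG library, to 1 in DESeq2 and to 0 with all 5 groups, where 13 were lower at an unadjusted p under 0.05. DLGAP5, a spindle protein, was at 15.1, 19.1 and 19.5 CPM against 28.9, 26.4 and 27.9 CPM. G1/S genes gave 3 lower and 1 higher of 30, the latter CDKN1A. This share of 13.3% was near the 12.9% of all tested genes that passed. Among the lower ones were RRM2 (-0.53 ± 0.11), a ribonucleotide reductase subunit, and CDKN2C (-0.47 ± 0.06), a CDK inhibitor. AURKA (-0.30 ± 0.12) and AURKB (-0.08 ± 0.25) did not pass.

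The other lists held few genes that passed. Against 12.9% of all tested genes, the share was 8.33% for AP-1 and for NF-kB genes. It was 16.7% for interferon-stimulated genes and 7.41% for mTORC1 genes. For NRF2 genes and histones it was 22.2%, for autophagy genes 21.7%, for splicing factors 24% and for MHC genes 30%. With one library left out, at most 1 AP-1, 2 NF-kB, 4 NRF2 and 4 autophagy genes were higher, and at least 0, 0, 1 and 2. Lower MHC genes ranged from 2 to 7 and lower splicing factors from 1 to 6. AP-1 genes and NF-kB genes each gave 1 higher of 12, IER2 (0.32 ± 0.08) and REL (0.43 ± 0.11). Interferon-stimulated genes gave 1 higher and 2 lower of 18, and mTORC1 nutrient signalling genes 2 higher of 27, SESN2 and FNIP1. The FNIP1 call was lost in 11 of 15 alternatives, DESeq2 and the length correction among them. Of 18 NRF2 genes, 2 rose and 2 fell. SLC7A11, also a member of the transporter list, was among those that rose. PRDX1, a peroxidase, was at 150, 164 and 162 CPM against 240, 226 and 240 CPM. Autophagy and lysosome genes gave 4 higher and 1 lower of 23, with MAP1LC3B at 0.42 ± 0.08 and the receptor SQSTM1 at 0.25 ± 0.05. MHC genes gave 5 lower and 1 higher of 20. The higher one, the class II activator CIITA, was at 32.6, 23.5 and 23.1 CPM against 14.6, 14.6 and 12.3 CPM, and B2M fell by 0.30. Splicing factors gave 5 lower and 1 higher of 25, and of 9 histone genes tested 1 rose (H2AC6) and 1 fell (H2BC12, with 71% of its 31-base words in other genes). Of 15 alternatives, the call was lost in 5 for H2AC6 and in 7 for H2BC12.

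The largest single differences, among genes of at least 5 CPM, were mostly of low abundance. HGH1, a chaperone for elongation factor 2, was at 13.2, 14.5 and 8.92 CPM with NCP26 and at 0, 0 and 1.99 CPM with HFG (4.12 ± 0.57, adjusted p = 0.000567). This size rests on 6 counts in HFG replicate 3 and 0 in the other HFG libraries, and was 8.32 without HFG replicate 3. It was at 7.16, 9.74 and 19.8 CPM with DMSO, so the HFG libraries were the low ones. TRPM8, a cold-sensing ion channel, was at 16.8, 14.7 and 14.2 CPM against 5.65, 5.90 and 5.64 CPM (1.40 ± 0.20). GLI1, a hedgehog transcription factor, had a log2FC of 1.29 ± 0.22. ENSG00000174111 (1.63 ± 0.23), IL18BP (1.62 ± 0.38), ALPK3 (1.22 ± 0.30), ENSG00000258472, ZMAT1, ZNF808 and WDPCP, together with ATF3 and TRIB3, complete the 12. IL18BP, ALPK3, ENSG00000174111, ENSG00000258472, ZNF808 and WDPCP were each highest in NCP26 replicate 1 and higher in DMSO replicate 2 than in the other DMSO libraries, and without NCP26 replicate 1 the calls of WDPCP (0.69, adjusted p = 0.051), ZNF808 (0.85, adjusted p = 0.104) and ENSG00000258472 (0.97, adjusted p = 0.106) were lost. ZNF808, WDPCP and ENSG00000258472 were also lost without any one HFG library, ALPK3 without HFG replicate 2 or 3, IL18BP without HFG replicate 1 and ZMAT1 without HFG replicate 3. ENSG00000258472 shared 97% of its 31-base words with other genes.

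On the lower side, GJA1, the gap junction protein connexin 43, was at 11.3, 10.4 and 12.2 CPM against 27.6, 24.3 and 29.5 CPM (-1.27 ± 0.15). DCLK1, a microtubule-associated kinase, fell by 1.08 ± 0.14 and the bHLH repressor HES6 by 1.16 ± 0.28. NPIPA7 (-1.37 ± 0.31) and NME1-NME2 (-1.30 ± 0.13) shared 99.0% and 98.1% of their 31-base words with other genes, and POLR1G and TMEFF1 58.5% and 76.8%, so these 4 are uncertain. GLDC, LY6H, ENSG00000230567 and MTUS1 were among the others. With one library left out, the calls of LY6H (5 libraries), ENSG00000230567 (3), MTUS1 (3) and NPIPA7 (2) were lost, and those of HES6, POLR1G and TMEFF1 without HFG replicate 3.

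Set beside the other groups of the line, the ISR genes showed a stepwise order. TRIB3 was at 77.0, 62.2 and 68.1 CPM with DMSO, at 82.3, 72.4 and 83.8 CPM with NCP22, and at 79.3, 78.0 and 75.0 CPM with halofuginol, far below HFG. CHAC1 was at 2.72, 3.0 and 1.96 CPM with DMSO, far below the levels with HFG and NCP26 given above. NCP26 above HFG above DMSO, with no overlap between any of the 9 libraries, held for 8 of 11 ISR factors, 12 of 17 ATF4 targets, 8 of 17 transporters and 8 of 22 synthetases, against 2.49% of all tested genes (5.11% with DMSO replicates 1 and 3). Groups that do not overlap are a description here, and no test against DMSO was made. ATF4, in contrast, was at 502, 314 and 466 CPM with DMSO and nearly level between HFG and NCP26, and EPRS1 was at 561, 560 and 543 CPM.

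On the lower side the order differed between lists. NCP26 below HFG below DMSO held for 2.91% of all tested genes with all 3 DMSO libraries and for 6.53% with DMSO replicates 1 and 3. With all 3 it held for 14 of 30 G2/M genes, 9 of 28 sterol genes, 5 of 29 glycolysis genes and none of 31 respiratory chain genes. With replicates 1 and 3 these counts were 17, 14, 17 and 13. FASN was at 477, 1093 and 438 CPM with DMSO, so HFG already lay well below DMSO and NCP26 lower again. Of the 76 ribosomal proteins, 1 stepped down in this way with DMSO replicates 1 and 3 and none with all 3. HFG was above DMSO in 70 of 76 by either set, and NCP26 was below DMSO in 44 with replicates 1 and 3 and in none with all 3. Of all 10462 tested genes, HFG was above DMSO for 1625 with all 3 DMSO libraries and for 2352 with replicates 1 and 3. NCP26 was below DMSO for 1659 with all 3 and for 2920 with replicates 1 and 3.

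The same contrast in AMO1 gave more and larger differences. Of 10775 genes tested in AMO1, 4842 passed (44.9%), and 857 of them differed at least 2-fold. The groups did not overlap there for 5686 genes (52.8%). Of the 1348 L363-CFZr calls among the 10213 genes tested in both lines, 907 (67.3%) also passed in AMO1, where 43.8% of these genes did. They were 20.3% of the AMO1 calls. The direction was shared for 755, of which 494 were lower and 261 higher in both, and was opposite for 152. The Pearson correlation of log2FC between lines was 0.197 across genes, which are not independent replicates. In one fit of both lines, the contrast differed between them for 2440 of 11115 genes (22.0%).

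Several ISR genes differed between the lines. The difference passed for 6 of 11 ISR factors, all higher in L363-CFZr, and for 11 of 18 ATF4 targets, 10 higher and 1 lower. Over all genes of that fit it passed for 22.0%. TRIB3 in AMO1 was at 400, 420 and 431 CPM with NCP26 and at 363.5, 390 and 355 CPM with HFG, a log2FC of 0.17 ± 0.05, and the difference between lines was 0.81 ± 0.08 (adjusted p = 1.98e-07). INHBE had a log2FC of 0.00 ± 0.07 in AMO1 and ATF3 0.05 ± 0.08, and neither passed there. CHAC1 was lower with NCP26 in AMO1, at 15.7, 18.9 and 26.4 CPM against 43, 54.7 and 40.6 CPM, so its sign was opposite in the lines and the difference was 1.7 ± 0.22 (adjusted p = 1.23e-05). SLC7A11 (-0.41 ± 0.08), ASNS (-0.36 ± 0.05), ATF4 (-0.46 ± 0.04), EPRS1 (-0.58 ± 0.04) and PYCR1 (-1.07 ± 0.07) were also lower with NCP26 in AMO1. DDIT3 was higher in both lines, by 1.01 in L363-CFZr and 0.57 ± 0.06 in AMO1, with a difference of 0.40 ± 0.12. AARS1 was higher in both, by 0.46 ± 0.04 in AMO1, and its difference between lines (adjusted p = 0.978) had a standard error of 0.058.

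Outside the ISR, glycolysis and hypoxia genes mostly went opposite ways, with 23 of 29 higher and 3 lower in AMO1 and a median of 0.41 there. Of all genes tested in AMO1, 22.6% were higher and 22.4% lower. The difference passed in the lower direction in L363-CFZr for 25 of 30 and in the higher direction for 2. The shares over all genes of that fit were 10.9% lower and 11.1% higher. ADM was lower with NCP26 in both lines (-1.42 ± 0.09 in AMO1). ABCB1 was lower with NCP26 in AMO1, at 636, 643 and 683 CPM against 1196, 1242 and 1284 CPM, with a difference between lines of 1.23 ± 0.05. SDC1 was higher there, at 2369, 2339 and 2440 CPM against 1227, 1135 and 1074 CPM (1.06 ± 0.04), and MCL1 rose by 0.84 ± 0.03. Ribosomal proteins in AMO1 were lower in 60 of 76 and higher in 5, against 22.4% and 22.6% of all genes tested there. Their median was -0.27. The difference between lines passed for 25 of them, 6 higher and 19 lower in L363-CFZr, against 22.0% of all tested genes. JCHAIN was lower in both (-1.16 ± 0.03 in AMO1), as was HSPA8 (-1.21 ± 0.05). The lines differ in origin as well as in CFZ resistance. The sample numbers of their libraries also fall in separate numbered sets, and no label says what a set stands for. The parts of origin, resistance and set in these differences cannot be told apart.

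**Figure D4:**
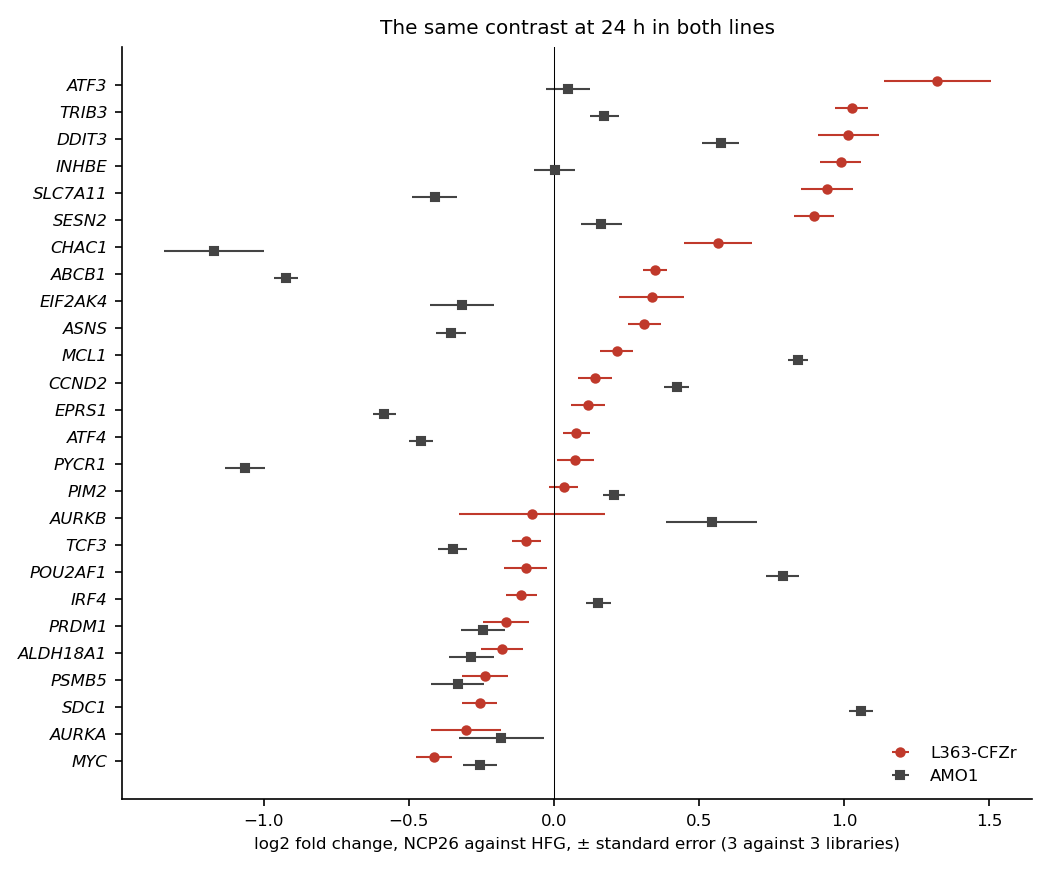
Each row is one gene, with the log2FC of NCP26 over HFG on the horizontal axis for L363-CFZr (circles) and AMO1 (squares), from 3 against 3 libraries each, and bars are ± 1 standard error. CHAC1, SLC7A11, ASNS and ABCB1 lie above 0 in L363-CFZr and below 0 in AMO1, and SDC1 lies the other way.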

How the data were processed

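Poly(A) RNA of each sample was sequenced as directional paired-end libraries (NEBNext Ultra II, NextSeq 500), and the 24 h samples were kept on ice before extraction. The deposited table holds whole-number read counts per Ensembl gene, which the authors made with kallisto on a GRCh38 transcriptome. The labels name hg19 instead, and the kallisto version, the annotation and the step to gene counts are not given in the sources. Of 20167 identifiers, 19299 (95.7%) were placed by GENCODE v44 (GRCh38).

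The counts were analysed with edgeR 4.0.16 in R 4.3.3. Genes were kept by filterByExpr (minimum count 10, minimum total 15), scaled by TMM and tested with the quasi-likelihood F test, with Benjamini-Hochberg adjustment over all tested genes and a threshold of 0.05. The standard error is the absolute log2FC divided by the square root of F. Fits held the 6 L363-CFZr libraries, the 6 AMO1 libraries, and all 12 with a line-by-compound interaction. DESeq2 1.42.0 and other settings were alternatives. The study used DESeq2. CPM of other L363-CFZr groups are scaled over 15 libraries. Sharing of 31-base words, the kallisto word size, was counted over GENCODE transcripts on either strand. Counting error limits low genes, and 3 libraries per group limit every test.

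The members and gene lists were chosen with earlier results of these data known. Named genes were the 12 largest differences in each direction that passed, averaging 5 CPM or more and without overlap between groups, the 2 members of each list with the smallest p, and fixed ISR, proline and myeloma genes. For the difference between lines the 5 largest in each direction were taken. Other list members were named after their values were seen, and some genes that the rule takes are not reported here. The procedure was tested on simulated counts. In the L363-CFZr comparison (10366 genes) it recovered 52% of 100 genes changed 1.5-fold and 82% of 100 changed 2-fold, with 6.29% false calls.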

Additional observations from a re-analysis of the deposited data

Results flagged for a closer look

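The contrast of NCP26 and HFG at 24 h differed between L363-CFZr and AMO1 (edgeR interaction of line and compound) for 20 of the fixed genes. It did so for 22.0% of all genes of that fit. The remaining fixed genes, MYC, PRDM1, AURKA, AURKB, CCND1, PSMB5 and ALDH18A1, did not pass. Differences are given as log2FC in L363-CFZr minus that in AMO1. Among ISR genes and feedback regulators that passed, these were 1.23 for ATF3, 0.81 for TRIB3, 0.40 for DDIT3 and 0.50 for ATF4. Among ATF4 targets and amino acid genes they were 1.7 for CHAC1, 0.95 for INHBE, 0.69 for SESN2, 1.31 for SLC7A11, 0.63 for ASNS and 1.1 for PYCR1. The target gene EPRS1 differed by 0.66, the kinase gene EIF2AK4 by 0.61 and the efflux pump gene ABCB1 by 1.23. The myeloma genes that passed differed mostly the other way, by -1.35 for SDC1, -0.93 for POU2AF1, -0.67 for MCL1, -0.32 for CCND2, -0.31 for IRF4 and -0.21 for PIM2, against 0.21 for TCF3. Of 19 alternatives, mostly single libraries left out, the call was lost in 7 for TCF3, in 4 each for PIM2 and DDIT3 and in 1 for EIF2AK4.

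Of the largest differences between lines, 5 were positive, at 4.88 for TENM1, 4.40 for USP17L23, 4.18 for SCARF2, 4.13 for FEZF2 and 4.11 for KCNK2. Among the NCP26 and HFG libraries of L363-CFZr, TENM1, SCARF2, FEZF2, KCNK2 and USP17L23 were high in NCP26 replicate 1 alone. USP17L23 had 65, 5 and 6 counts with NCP26 and 2, 4 and 11 counts with HFG. It shared 94% of its 31-base words with other genes. KCNK2 was at 221, 24.2 and 19.5 CPM with NCP26 and at 34.6, 23.9 and 56.1 CPM with HFG. The share of the 52 genes picked from DMSO replicate 2 was 0.721% in NCP26 replicate 1 and 1.14% in AMO1 HFG replicate 1, against 0.0828% to 0.238% in the other libraries of the 12. Outside the 12, it was 1.43% in DMSO replicate 2 and 1.35% in halofuginol replicate 3 of L363-CFZr at 24 h. What these libraries share was not tested further.

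The 5 largest negative differences were -5.56 for GSTP1, -5.06 for FGFR1, -4.47 for RIPOR2, -4.06 for EDA2R and -3.59 for SCRN1. GSTP1, FGFR1, RIPOR2, EDA2R, SCRN1 and USP17L23 were too low in L363-CFZr to be tested there. The first 5 of these had 0 or 1 counts in each NCP26 library of that line and 0 to 3 in each HFG library. They entered the fit of both lines through their levels in AMO1, so the sizes of their differences rest on a few counts. Of 19 alternatives, the call was lost in 14 for RIPOR2, in 12 for SCRN1 (-2.34 to -5.24), in 3 for FGFR1, in 2 for EDA2R and in 1 for USP17L23. Of 18, it was lost in 3 for SCARF2 and in 2 each for FEZF2 and KCNK2.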

How the results depend on the processing

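In L363-CFZr, 1354 genes passed (577 higher, 777 lower). The fit of all 5 groups of the line, with the uneven DMSO libraries, gave 127 (47 higher, 80 lower). Leaving out one library at a time gave 588 to 1688 genes in all, 213 to 735 higher and 375 to 953 lower. The lowest totals came without HFG replicate 3 (588), HFG replicate 2 (633) and HFG replicate 1 (874), and the highest without NCP26 replicate 1 (1688). DESeq2 gave 944 genes, of which 934 were among the 1354, with 370 higher. It set no adjusted p for 4671 low genes, 182 of them among the 1354. Size factors of DESeq2 gave 1347, no filter 1737, a GC offset 1523, and, added after seeing the data, the 4 groups without DMSO 1271 and a length offset 1238. For AMO1 the total ranged from 3514 to 5059. For the difference between lines, DESeq2 gave 786 higher genes against 1231, and the total ranged from 1632 to 2564. KCNK2, which did not pass in L363-CFZr (1.17), ranged from -0.79 (without NCP26 replicate 1, the sign reversed) to 1.65 with one library left out. For single genes in L363-CFZr, 1428 recomputed values kept their side of the threshold, 141 lost the call and 18 gained it.

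Replicate numbers are shared by the groups, but no label says that a number marks a shared culture or day, so the samples were not paired. In L363-CFZr, deviations of libraries from their group correlated at 0.0928, 0.0868 and 0.025 between same-numbered libraries. Between differently numbered libraries they correlated at -0.102 to 0.0458. NCP26 replicates 1 and 2 correlated best with the HFG library of their own number, and NCP26 replicate 3 with HFG replicate 2. With the replicate block 1498 genes passed in L363-CFZr, 667 higher and 831 lower, and with block and GC offset 1754.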
